A study of Mus musculus with 18 samples.

Results

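Expression of 10 genes for ion channels, ion transporters and calcium handling proteins of skeletal muscle was examined, of 21899 genes with a listed value. The genes were picked by name, and 3 of them, Kcng4, Best3 and Slc41a3, were picked because their level in muscle was lower in mice on a high-salt diet. The other 7, Clcn1, Scn4a, Kcnj2, Kcnc1, Cacna1s, Ryr1 and Atp2a1, were picked as central components of the same machinery. The muscle values by diet therefore describe the selection. They are given with no p for these 10 genes, and nothing is read from how many of them pass a threshold. The other genes of the same pathways and the other tissues were tested. The lists of those other genes were also chosen with earlier results of these data known.

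The libraries came from 18-week-old male wild type C57BL/6 mice. The HSD group had received a salt-rich diet with saline as drinking water for 12 weeks, and the CON group had received chow diet with tap water. RNA of quadriceps muscle, epididymal white adipose tissue (eWAT) and liver was sequenced from 3 CON and 3 HSD mice for each tissue, and several mice gave more than 1 tissue. Library names hold the group, the number of the mouse and a letter for the tissue (M for muscle, W for eWAT, L for liver). The names tie the 3 libraries of a group to separate mice. Values are FPKM, the fragments assigned to a gene scaled by its length and by the total of the library. Fold changes are differences of the group means of log2(FPKM + 0.5), with the standard error (SE) of the fit. The libraries held between 7628071 and 16637489 fragments. All 20 skeletal muscle markers were above 0 in each muscle library, where their summed FPKM was between 71606 and 89329.6. Several libraries carried transcripts of other tissue. The liver library CON16L had a summed skeletal muscle marker FPKM of 5899, against 8.66 to 24.5 in the other 5 liver libraries. The eWAT library HS3W had a summed epididymal epithelium marker FPKM of 24807, against 45.3 to 78.7 in the other 5 eWAT libraries. Summed male germ cell markers were 670.1 FPKM in HS2W and 334 in HS3W. Summed hepatocyte markers were 132 to 369 FPKM in CON eWAT and 8.53 to 18.1 in HSD eWAT, and their part in the eWAT values was not tested. In muscle these markers summed to between 1.49 FPKM in CON16M and 45.8 in CON71M. Summed blood markers were 5626 FPKM in CON16L and 5667 in CON16W, against at most 842 in the other liver libraries and 744 in the other eWAT libraries. Diet values in eWAT and liver that rest on CON16L or HS3W are given with and without that library.

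A contraction starts at the motor endplate, where acetylcholine receptors depolarise the fibre and sodium channels carry the action potential along the membrane and into the transverse tubules. Potassium and chloride channels end the action potential and keep the membrane stable between stimuli. In the tubules the voltage sensor opens the ryanodine receptor of the sarcoplasmic reticulum, calcium stored on calsequestrin floods the cytosol, and a calcium pump returns it. Fast and slow fibres carry different isoforms of several of these proteins.

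In the GENCODE M21 annotation of build GRCm38, which is mm10, all 10 genes are protein coding. Kcng4 lies on the minus strand at chr8:119623854-119635680, Best3 on the plus strand at chr10:116986314-117025040 and Slc41a3 on the plus strand at chr6:90604725-90646412. Clcn1 lies at chr6:42286685-42315756, Scn4a at chr11:106318592-106353288 and Kcnj2 at chr11:111066164-111076821. Kcnc1 lies at chr7:46396497-46438704, Cacna1s at chr1:136052750-136119822, Ryr1 at chr7:29003344-29125179 and Atp2a1 at chr7:126445858-126463108. The length of the merged exons ran from 2719 bases in Best3 to 21838 bases in Ryr1.

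The 250 bases before the RefSeq start (GRCm38.p6) are shown for Kcng4 and Slc41a3, which were lower in HSD muscle, and for Casq2, a calsequestrin gene that fell with them. Capitals mark E-boxes (CANNTG, which reads as the same motif on both strands), the sites bound by MyoD and other basic helix-loop-helix factors.
Kcng4, chr8:119635681-119635930, minus strand: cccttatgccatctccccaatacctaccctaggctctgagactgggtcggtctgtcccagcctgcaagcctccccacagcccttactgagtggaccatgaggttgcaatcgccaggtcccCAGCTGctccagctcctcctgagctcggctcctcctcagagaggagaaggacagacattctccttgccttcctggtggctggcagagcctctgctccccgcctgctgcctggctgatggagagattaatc
Slc41a3, chr6:90618996-90619245, plus strand: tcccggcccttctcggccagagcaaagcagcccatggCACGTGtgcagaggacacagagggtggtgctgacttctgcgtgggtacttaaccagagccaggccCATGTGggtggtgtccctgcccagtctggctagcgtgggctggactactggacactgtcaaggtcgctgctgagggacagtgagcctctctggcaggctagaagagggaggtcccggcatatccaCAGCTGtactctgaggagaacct
Casq2, chr3:102086165-102086414, plus strand: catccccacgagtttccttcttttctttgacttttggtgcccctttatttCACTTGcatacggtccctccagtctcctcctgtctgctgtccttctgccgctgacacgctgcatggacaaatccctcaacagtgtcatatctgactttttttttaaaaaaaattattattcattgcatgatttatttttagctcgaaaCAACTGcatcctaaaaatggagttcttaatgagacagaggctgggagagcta
The window of Kcng4 ended directly at the annotated gene, whereas that of Slc41a3 lay inside the GENCODE gene, since the RefSeq start is further downstream. Counted back from the start, Kcng4 held CAGCTG at -130. Slc41a3 held CACGTG at -213, CATGTG at -148 and CAGCTG at -23. Casq2 held CACTTG at -200 and CAACTG at -52. Of the 10 genes, 9 were matched to a window. An E-box was in 7 of these 9 windows and in 66.2% of 32851 windows of the same length. CAGCTG, which is 1 form of the E-box and a preferred site of MyoD, was in 5 of the 9 and in 13.0% of all windows. TGGAAA, the core of sites for the calcium-regulated factor NFAT, was searched on both strands and was in 0 of the 9 and in 18.6% of all windows. These matches are letters in a window and were not tested as sites.

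In muscle, the mean level of all 10 genes was lower in HSD than in CON mice, by a wide margin in 3 and by amounts within or close to the spread of the libraries in the other 7. All 10 passed the filter on low values. The group ranges did not overlap for 4 of the 10, Kcng4, Best3, Slc41a3 and Clcn1, all lower in HSD. The ranges did not overlap for 22.3% of the 10834 genes tested in muscle, and 15.6% were lower in this way. A differentially expressed gene (DEG) had an adjusted p under 0.05 and a log2 fold change of 1 or more in either direction. Both thresholds were passed by 3 of the 10 and by 0.323% of all tested genes, 11 higher and 24 lower. Under median-ratio scaling, 13 were higher and 15 lower, and in a fit with replicate number as a blocking term 54 genes were DEGs. Since the 3 were chosen with these values, nothing is read from their number. The nearest gene inside the threshold of fold change was Slc41a3 at -1.03, and the nearest outside it was Scn4a at -0.41. The median of all tested genes was -0.06.

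Kcng4 encodes a modulatory potassium channel subunit that forms no channel alone and alters the gating of pore subunits of its partner family. Its FPKM was 19.8, 16.8 and 18.1 in the CON libraries and 7.36, 6.50 and 8.47 in the HSD libraries. The highest HSD library was well below the lowest CON library. The HSD mean was 40.9% of the CON mean, a log2 fold change of -1.24 (SE 0.131, n = 3 per group). These values rest on 321 to 998 fragments a library.

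Best3 encodes a bestrophin, a member of a family of calcium-activated anion channels. Its FPKM was 9.24, 7.36 and 6.35 in CON and 4.01, 2.12 and 2.46 in HSD. The groups did not overlap, although the library HS2M was higher than the other HSD libraries. The HSD mean was 37.4% of the CON mean, a log2 fold change of -1.30 (SE 0.210), on 75 to 333 fragments a library. Without HS2M the value was -1.53.

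Slc41a3 encodes a member of the SLC41 family of magnesium transporters. Its FPKM was 39.1, 36.1 and 39.6 in CON and 17.4, 18.2 and 19.9 in HSD, the tightest groups among the 3 genes. The HSD mean was 48.4% of the CON mean, a log2 fold change of -1.03 (SE 0.113). Without HS2M the value was -0.99. Under median-ratio scaling, which moved the median of all genes to 0.01, Slc41a3 was at -0.94.

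**Figure D1:**
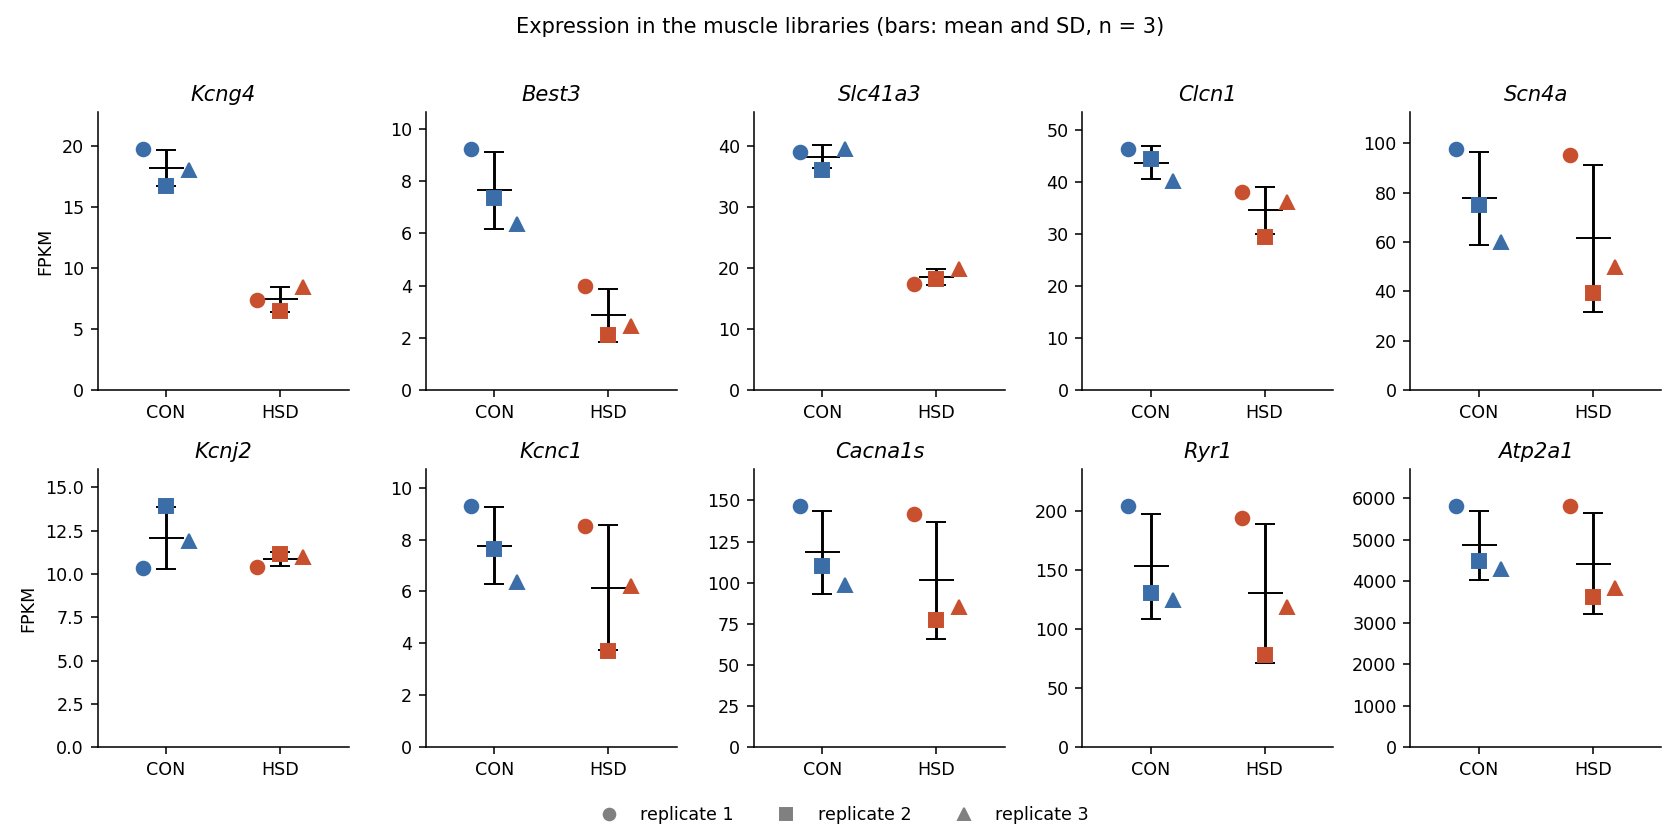
FPKM (vertical axes, each from 0) of the 10 genes in the 6 muscle libraries, with CON in blue and HSD in red, 1 symbol per replicate number and the mean with SD (n = 3) as black bars. The groups are apart for Kcng4, Best3, Slc41a3 and Clcn1, and replicate 1 (CON16M and HS2M) is highest in both groups for 7 of the 10 genes.

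Among the channels of the surface membrane and tubules, Clcn1 encodes the chloride channel that carries most of the resting conductance of the fibre. Its FPKM was 46.4, 44.5 and 40.3 in CON and 38.0, 29.5 and 36.3 in HSD. The groups did not overlap, but the gap was small, with a log2 fold change of -0.34 (SE 0.132) and an HSD mean at 79.2% of CON. Scn4a encodes the sodium channel that carries the action potential of adult muscle. Its FPKM was 97.7, 75.0 and 60.1 in CON and 95.3, 39.4 and 49.7 in HSD. The groups overlapped through HS2M, with a log2 fold change of -0.41 (SE 0.296). Kcnj2 encodes an inward rectifier potassium channel that sets the resting potential. Its FPKM was 10.3, 13.9 and 11.9 in CON and 10.4, 11.2 and 11.0 in HSD. The groups overlapped, and the log2 fold change was -0.14 (SE 0.131). Kcnc1 encodes a fast voltage-gated potassium channel. Its FPKM was 9.30, 7.64 and 6.36 in CON and 8.52, 3.70 and 6.20 in HSD, with a log2 fold change of -0.37 (SE 0.252). Here too HS2M was inside the range of CON. At each replicate number, HSD was below CON for Scn4a and Kcnc1, and likewise for Cacna1s and Ryr1, whose values follow. Same-numbered libraries came from different mice, and the groups overlapped for these genes. The share of all tested genes with this order was not counted, so nothing is read from it.

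Of the genes of calcium release and return, Cacna1s encodes the voltage sensor in the tubules. Its FPKM was 147, 109.9 and 98.7 in CON and 142, 77.3 and 85.0 in HSD. The groups overlapped, with a log2 fold change of -0.26 (SE 0.232). Ryr1 encodes the calcium release channel of the sarcoplasmic reticulum. Its FPKM was 204, 130.0 and 125 in CON and 194, 78.0 and 119 in HSD, and the log2 fold change was -0.29 (SE 0.304). Without HS3M, its lowest library, the fold change was 0.03. Atp2a1 encodes the calcium pump of fast fibres. Its FPKM was 5818, 4480 and 4285 in CON and 5818, 3608 and 3833 in HSD, with a log2 fold change of -0.16 (SE 0.209). The highest library of each group had the same level. Atp2a1 alone took 2.02% (95% Wilson interval 2.02 to 2.03%) of all fragments in CON16M and the same share in HS2M, the highest of the muscle libraries, and 1.25% (1.25 to 1.26%) in HS3M, the lowest of them.

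The spread within a group ran in the same direction for most of these genes. CON16M was the highest CON library and HS2M the highest HSD library for 7 of the 10 (Best3, Clcn1, Scn4a, Kcnc1, Cacna1s, Ryr1 and Atp2a1), a pattern held by 17.3% of all tested genes. For the same 7 genes, CON72M was the lowest CON library and HS3M the lowest HSD library, as for 16.2% of all tested genes. Gene length moved with this spread across all genes. In HS2M, the median deviation from the group mean on the log2 scale was -0.32 for genes with up to 1000 exon bases and 0.09 for genes over 8000. In HS3M it was 0.21 and -0.05, and in CON16M -0.12 and 0.03. Of the 10 genes, Kcnc1 and Ryr1 were over 8000 exon bases and the rest were between 2000 and 8000. In HS2M, the median was -0.08 for all genes over 2000 and up to 4000 bases. In that class, Best3 was at 0.46, Atp2a1 at 0.43, Kcng4 at -0.007 and Slc41a3 at -0.09. The median was 0.02 for genes over 4000 and up to 8000. There, Scn4a was at 0.73, Cacna1s at 0.54, Clcn1 at 0.14 and Kcnj2 at -0.06. The part of exon length in the spread of the 10 genes was not tested.

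Per length, Atp2a1 was the most abundant of the 10 in CON muscle, with a mean of 4861 ± 835 FPKM (SD, n = 3). Ryr1 (153 ± 44.5) and Cacna1s (118 ± 25.2) followed with overlapping ranges, and then Scn4a (77.6 ± 18.9), Clcn1 (43.7 ± 3.16) and Slc41a3 (38.2 ± 1.89), each apart from its neighbours. Kcng4 (18.2 ± 1.51) was above Kcnj2 (12.1 ± 1.80), and the lowest were Kcnc1 (7.77 ± 1.48) and Best3 (7.65 ± 1.47), whose ranges overlapped. In HSD muscle, Kcng4 at 7.44 ± 0.991 FPKM lay below Kcnj2 at 10.8 ± 0.397, without overlap, and overlapped Kcnc1 at 6.14 ± 2.41. The other 8 genes kept their order.

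To see whether other genes of the same machinery differed by diet, 13 lists of channel, calcium and magnesium genes were read from the fit across all genes. These lists were chosen with earlier results of these data known, so their counts and p-values are not free of that knowledge. Of 248 listed genes, 247 had a row and 116 passed the filter. Only Casq2 was a DEG, against a background of 0.323%. At an unadjusted p under 0.05, 25 of the 116 (21.6%) were lower and 2 (1.72%) were higher, against 12% and 4.29% of all tested genes. The median log2 fold change of the 116 was -0.12, and that of all tested genes was -0.06. Since the latter is below 0, most tested genes were lower in HSD. Their exact share was not counted, so nothing is read from counts of lower and higher genes alone in the lists and marker sets that follow.

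Casq2 encodes the calsequestrin of slow and cardiac muscle, which stores calcium inside the sarcoplasmic reticulum. Its FPKM was 18.5, 20.7 and 17.2 in CON and 7.06, 9.26 and 7.34 in HSD. It fell to below every CON library in all 3 HSD mice, with a log2 fold change of -1.21 (SE 0.137, limma adjusted p = 0.00911). Its call held under 15 of 16 alternative settings, with adjusted p from 0.00273 to 1. Casq1, the calsequestrin of fast fibres, was at a mean of 917 FPKM in CON and 769 in HSD (-0.26, SE 0.127, limma adjusted p = 0.353), with groups that did not overlap. Of the 25 tested genes of the triad, where the tubule meets the reticulum, 19 were lower and 6 higher, and their median was -0.09. Among the partners of Cacna1s and Ryr1, the adaptor Stac3 was at -0.09 and Jph1, which ties both membranes together, was at -0.03, and both turned to values at or above 0 under median-ratio scaling. Trdn, which links calsequestrin to the release channel, was at 0.29 (SE 0.156, limma adjusted p = 0.386), and Fkbp1a was at 0.08. The voltage sensor subunits Cacng1, Cacna2d1 and Cacnb1 were at 0.21, 0.07 and -0.33.

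Of the small proteins that inhibit the calcium pump, Sln and Mrln lay on opposite sides of 0. Sln, which encodes sarcolipin, had an FPKM of 4.35, 4.04 and 3.66 in CON and 2.05, 1.99 and 2.63 in HSD. The groups did not overlap, and the log2 fold change was -0.74 (SE 0.135, limma adjusted p = 0.0453), outside the threshold of size. The adjusted p ran from 0.0367 to 1 over 10 alternatives. Mrln, which encodes myoregulin, had an FPKM of 24.9, 20.1 and 25.2 in CON and 27.0, 49.1 and 43.1 in HSD (0.71, SE 0.208, limma adjusted p = 0.139), so all HSD libraries were above CON. Atp2a2, the pump of slow fibres, was at 47.0 ± 11.9 FPKM in CON and 27.7 ± 5.01 in HSD (-0.74, SE 0.194, limma adjusted p = 0.110). Atp2a2 was named after its values were seen. Pvalb, the abundant calcium buffer parvalbumin, was at 0.28 (SE 0.187, limma adjusted p = 0.480).

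Besides Kcng4, the only modulatory subunit that passed the filter, Kcnf1, was at 1.98 FPKM in CON and 1.81 in HSD. Among the other potassium channels, Kcnj12, an inward rectifier like Kcnj2, was at -0.35 (limma adjusted p = 0.290). Kcnc4, of the family of Kcnc1, was at -0.12. Kcna7 was at -0.10, Kcnj11 at 0.12 and Kcnn1 at 0.17.

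Best3 was the only bestrophin gene with a level above the filter in muscle. Best1 had a mean of 0.153 FPKM in CON and 0.150 in HSD, and Best2 was listed at 0 in all 6 libraries. Of 20 tested chloride and anion channel genes, 17 were lower and 3 higher in HSD, with a median of -0.15. At an unadjusted p under 0.05, where 12% of all tested genes were lower, 4 of the 20 were lower. The smallest p was that of Ttyh2 (4.83 to 3.05 FPKM, -0.60, SE 0.157, limma adjusted p = 0.111). Ano5, the most abundant of the list, was at -0.25.

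Of 12 tested magnesium transporter genes, 9 were lower and 3 higher, with a median of -0.24. At an unadjusted p under 0.05, 5 of the 12 were lower and 1 was higher, against 12% and 4.29% of all tested genes. Cnnm4 had an FPKM of 3.06, 2.69 and 2.83 in CON and 1.62, 1.29 and 1.95 in HSD (-0.68, SE 0.145, limma adjusted p = 0.0714). All HSD libraries were below CON. Slc41a1, the closest relative of Slc41a3 above the filter, had an FPKM of 17.4, 17.0 and 12.2 in CON and 15.2, 9.01 and 8.62 in HSD (-0.52, SE 0.219, limma adjusted p = 0.286), with overlap. Slc41a2 ran from 0.130 to 0.362 FPKM over the 6 libraries and was not tested. Trpm7, a channel for magnesium and other divalent ions, was the gene that was higher (0.41, SE 0.120, limma adjusted p = 0.139). It was named after its values were seen. Mmgt1, the most abundant of the list, was at -0.20.

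Of the acetylcholine receptor subunit genes, 4 were tested and all were lower, with a median of -0.45. At an unadjusted p under 0.05, 3 of the 4 were lower, against 12% of all tested genes. Chrna1 was at 3.78 ± 0.505 FPKM in CON and 2.45 ± 0.332 in HSD (-0.54, SE 0.140, limma adjusted p = 0.110), and Chrnb1, the most abundant, was at -0.18. Of the 3 tested sodium channel subunit genes of the lists, 2 were higher and 1 lower. Scn4b was at -0.25. Mcu, the pore of the mitochondrial calcium uniporter, was at 4.61 FPKM in CON and 3.28 in HSD (-0.43, SE 0.124, limma adjusted p = 0.135), whereas Saraf, which limits store-operated calcium entry, was at 0.02.

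**Figure D2:**
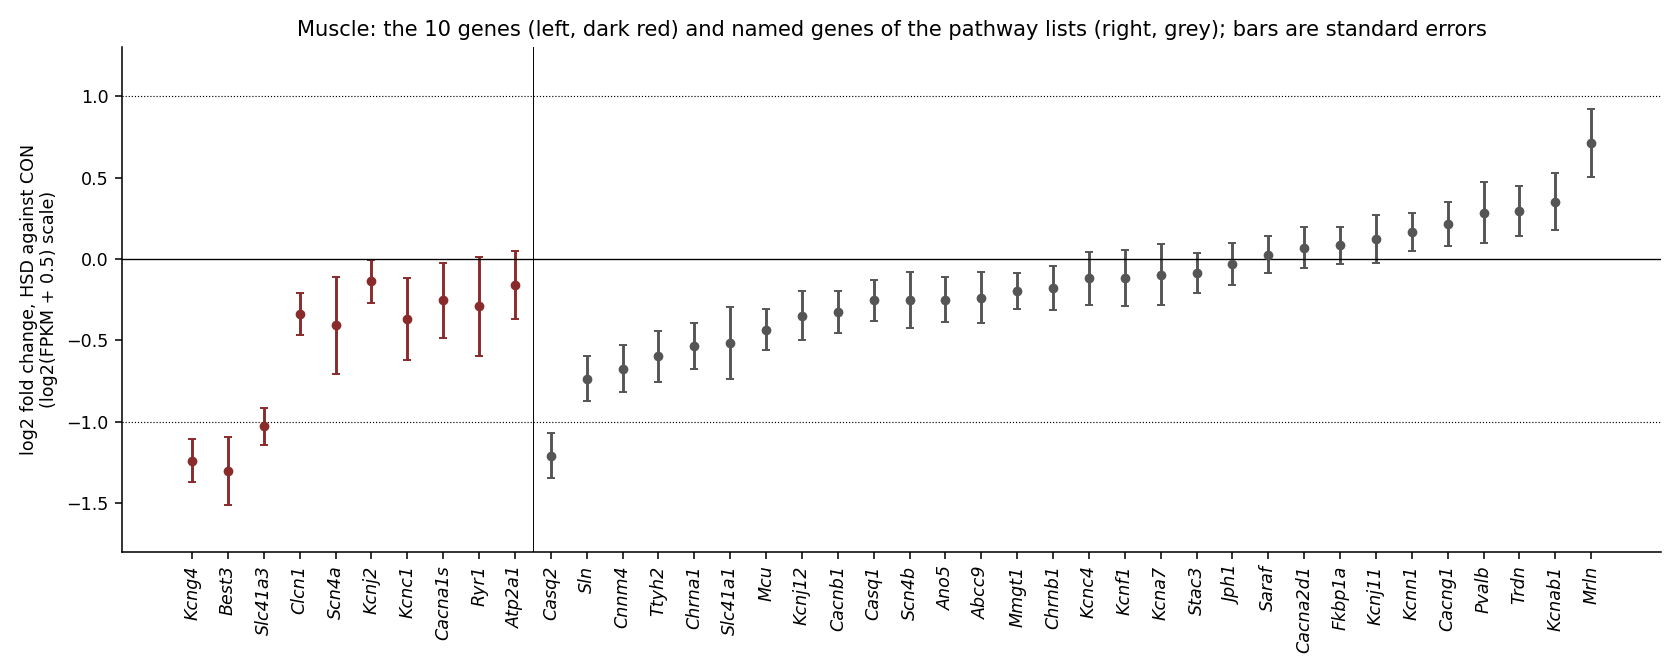
Log2 fold change of HSD against CON in muscle (vertical axis) for the 10 genes, left of the line, and for tested genes of the pathway lists chosen by rule, right of the line, with SE as bars. Dotted lines mark a log2 fold change of 1 in either direction, and Kcng4, Best3, Slc41a3 and Casq2 lie below the lower line.

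Slow and fast fibre markers did not move alike, and in bulk muscle fewer fibres of a type and less RNA per fibre cannot be told apart. All 8 slow fibre markers were lower in HSD, with a median of -0.90, and 4 of them did not overlap between groups, against 15.6% of all tested genes that were lower in this way. None had an adjusted p under 0.05, and the smallest was that of Tnni1 (limma adjusted p = 0.0768). Their summed FPKM was 209.5, 468 and 357 in CON and 136, 179 and 220 in HSD, and none was at 0. The myosin heavy chain genes of intermediate fast fibres, Myh2 and Myh1, fell. Myh2 was at 262, 330 and 259 FPKM in CON and 175, 132 and 108 in HSD (-1.06, SE 0.184, limma adjusted p = 0.0394). Myh1 was at 865, 697 and 664 in CON and 484, 321 and 312 in HSD (-1.01, SE 0.189, limma adjusted p = 0.0453). Myh4, the myosin of the fastest fibres, was at 9954, 7434 and 8507 in CON and 11150, 7823 and 9630.5 in HSD (0.14, limma adjusted p = 0.749), with overlap. Of the 9 fast fibre markers, 6 were higher and 3 lower, with a median of 0.15. The myosin genes, and the other fibre genes plotted beside them, were named after their values were seen.

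Markers of other cell types ran in both directions. All 7 tested nerve sheath markers, 4 of 5 smooth muscle markers and both tested muscle stem cell markers were higher in HSD. The medians of these lists were small, at 0.05, 0.11 and 0.23, and none of the higher markers had an unadjusted p under 0.05. The smooth muscle marker that was lower, Smtn, was at -0.76 (SE 0.141, limma adjusted p = 0.0453). Smtn was named after its values were seen. Of the adipocyte markers 5 of 10 were lower, and of the endothelial markers 6 of 8. The 8 macrophage markers summed to 29.3 to 40.7 FPKM in CON and 20.9 to 22.9 in HSD, with 7 of 8 lower, and C1qa fell (-1.07, limma adjusted p = 0.0213). The 7 fibroblast markers summed to 136 to 182 in CON and 119 to 128 in HSD, with 5 of 7 lower. Col3a1, a collagen gene, fell (-1.46, limma adjusted p = 0.0160). Of the other fibroblast markers, Col1a1 was at -1.17, Col1a2 at -0.85, Lum at -0.36, Dpt at -0.15, Pdgfra at 0.09 and Dcn at 0.16. The 5 blood markers summed to 965 in CON16M and to between 124 and 224 in the other muscle libraries. None of these 3 lists had a marker at 0. The part of these fibres and cells in the lower levels of Kcng4, Best3 and Slc41a3 was not tested.

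**Figure D3:**
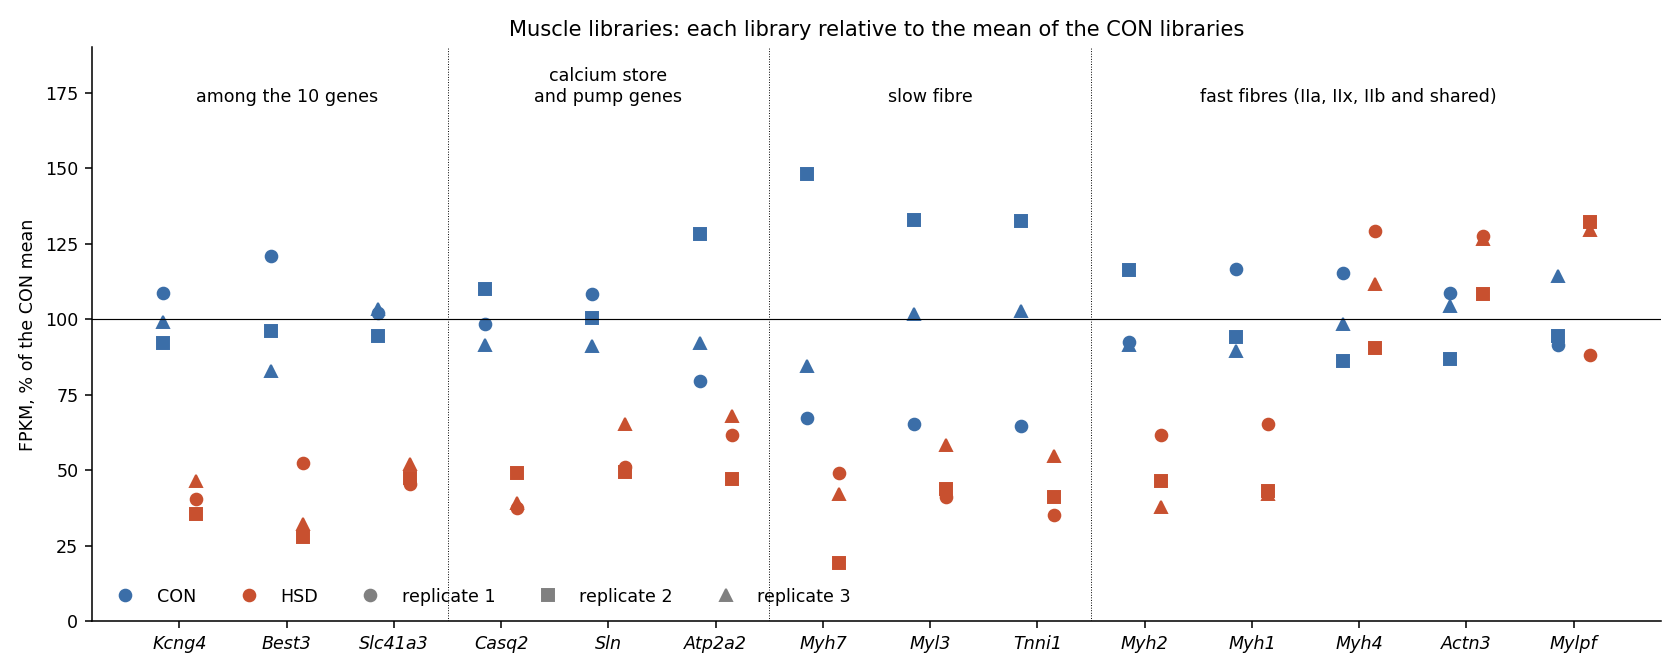
FPKM of each muscle library as a percentage of the CON mean of the gene (vertical axis, from 0), with CON in blue, HSD in red and 1 symbol per replicate number. Kcng4, Best3, Slc41a3, Casq2, Sln, Atp2a2, the slow fibre genes Myh7, Myl3 and Tnni1, and Myh2 and Myh1 have all HSD libraries below CON, whereas Myh4, Actn3 and Mylpf overlap. The slow fibre markers Myl2, Tnnt1, Tnnc1 and Myoz2, whose groups overlapped, are not plotted.

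The genes whose log2(FPKM + 0.5) ran most like that of Kcng4 over the 6 muscle libraries were Tfrc (Pearson r 0.997), Tnfaip2 (0.995) and Tm6sf1 (0.995). Tfrc, which encodes the transferrin receptor, had a mean of 29.6 FPKM in CON and 15.9 in HSD. For Slc41a3 they were Itgb6 (0.999), Fpgs (0.997) and again Tfrc (0.996). For Best3 they were Trim55 (0.996), Pex19 (0.994) and Myh1 (0.994). With 2 groups of 3 libraries, such values mostly follow the gap between groups, and 161, 142 and 176 of 10833 genes had an r of at least 0.95 with Kcng4, Slc41a3 and Best3.

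Across tissues, all 10 genes were highest in muscle. In CON eWAT, Slc41a3 had an FPKM of 4.35, 4.35 and 4.50 and Kcnj2 of 1.20, 1.55 and 1.44, and these were the only ones of the 10 with a mean above 0.5. Slc41a3 was higher in CON muscle than in CON eWAT by 2.98 (SE 0.527, limma adjusted p = 0.000689) and Kcnj2 by 2.72 (SE 0.363, limma adjusted p = 0.000117). Both tissues came from the same mice, which this fit did not pair. The SE also takes in the spread of CON liver with the library CON16L. The median of all 12637 genes in this contrast was -0.93. DEGs were 54.9% of the tested genes, 1009 higher and 5924 lower in muscle, and 2281 and 2423 under median-ratio scaling. The other 8 genes passed the filter only through their level in muscle. In CON eWAT their means were 0.216 FPKM for Atp2a1, 0.171 for Kcng4 and at most 0.0944 for the rest, with 0 to 37 fragments a library.

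**Figure D4:**
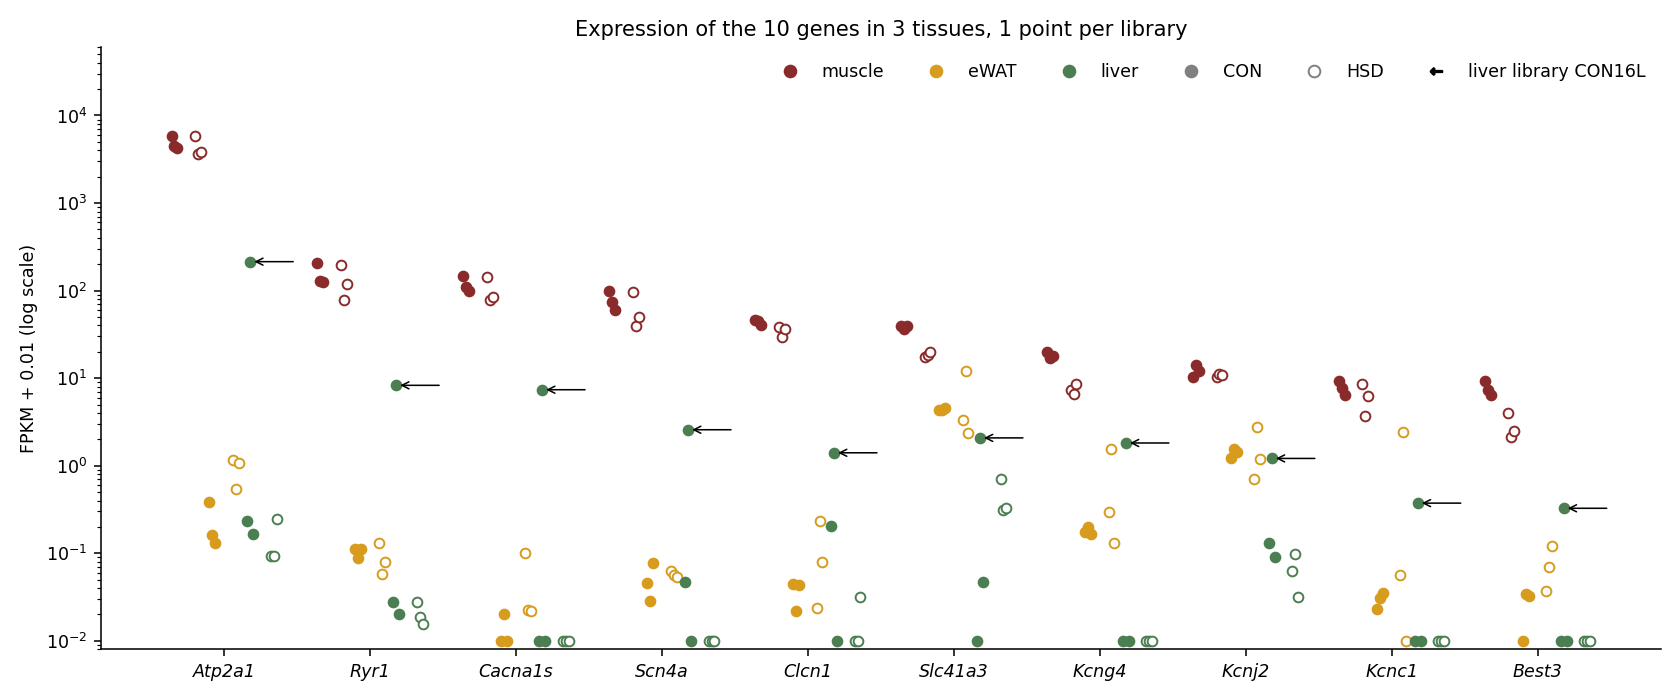
FPKM plus 0.01 on a log axis for the 10 genes in the order of their CON muscle mean, with 1 point per library, filled for CON and open for HSD, in muscle, eWAT and liver. Muscle is highest for each gene, and arrows mark the liver library CON16L, which lies far above the other liver libraries.

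In eWAT, the diet groups were compared for the 3 of the 10 genes that passed the filter, and none was a DEG. No gene of 13740 was a DEG by limma in eWAT (0%), nor by limma voom on recovered fragments, while 2298 had an unadjusted p under 0.05. Slc41a3 had an FPKM of 3.32, 12.0 and 2.34 in HSD, the highest in HS3W, and its log2 fold change was 0.07 (SE 0.542, limma adjusted p = 0.95). Without HS3W both remaining HSD libraries were below all CON libraries, at -0.57 (SE 0.142, limma adjusted p = 0.0662). The share of all genes apart in this way without HS3W was not counted, so nothing is read from this gap. Without HS3W, 160 genes were DEGs and none of them was among the 10. Kcnj2 had an FPKM of 0.686, 2.73 and 1.18 in HSD, again highest in HS3W, with a log2 fold change of -0.02 (SE 0.381, limma adjusted p = 0.975) that was -0.42 without that library. Atp2a1 had an FPKM of 0.377, 0.152 and 0.121 in CON and 1.16, 0.538 and 1.06 in HSD, on 7 to 55 fragments. All HSD libraries were above CON, a log2 fold change of 0.97 (SE 0.327, limma adjusted p = 0.244), as for 16.2% of all tested genes. It passed the filter only through the HSD group, where it was high, so nothing is read from its test or from that share. The summed skeletal muscle markers were also higher there, at 80.6 to 91.6 FPKM in HSD against 50.3 to 57.2 in CON, and their part in the difference was not tested. Kcnc1 was at 2.40 FPKM (279 fragments) and Kcng4 at 1.56 (73 fragments) in HS3W, against at most 0.0465 and 0.289 in the other eWAT libraries. The summed male germ cell markers were 334 FPKM in HS3W and 670.1 in HS2W, and at most 62.4 in the other eWAT libraries. The part of epididymal and germ cells in these values was not tested.

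In liver, 4 of the 10 genes passed the filter, Slc41a3, Cacna1s, Ryr1 and Atp2a1, through the library CON16L alone. None was a DEG (limma adjusted p between 0.764 and 0.979). Since the library that let them pass also sets the spread of the CON group, nothing is read from these tests. No gene of 10317 was a DEG by limma (0%) or by limma voom, and 592 had an unadjusted p under 0.05. In CON16L, Atp2a1 had an FPKM of 214, Ryr1 of 8.27, Cacna1s of 7.37, Scn4a of 2.57, Slc41a3 of 2.07 and Kcng4 of 1.81. Each of the 10 genes was at 3.19 to 9.95% of its CON muscle mean there, with a median of 5.04%. The 20 skeletal muscle markers were at a median of 4.75%, from 0 for Tnnc2, which had little signal in muscle as well, to 42.2% for Mb. Markers were unequal, since Myh1 was at 29.2% and Myh4 at 1.57%. The 8 slow fibre markers summed to 197 FPKM in CON16L, against 209.5 to 468 in CON muscle and at most 1.92 in the other liver libraries. Among the 10 genes, Kcnj2 (9.95%) and Kcng4 (9.93%) had the largest shares and Clcn1 (3.19%) the smallest.

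In the other 5 liver libraries, Kcng4, Best3, Cacna1s and Kcnc1 were at 0. With 3 fragments as the limit that a count of 0 allows, a level up to 0.0756 to 0.103 FPKM was not detectable for Kcng4, and up to 0.0304 to 0.0416 for Kcnc1. Clcn1 was at 0.193 FPKM on 8 fragments in CON14L and at 0.0216 on 1 fragment in HS5L, and Scn4a at 0.0372 on 2 fragments in CON14L, and both were at 0 in the remaining libraries. Slc41a3 had an FPKM of 0.692, 0.298 and 0.322 in HSD liver, on 21, 9 and 8 fragments, against 0 and 0.0376 in CON14L and CON72L, on 0 and 1 fragments. The 3 HSD libraries were thus above both CON libraries other than CON16L, which was at 2.07. With all libraries, its log2 fold change was 0.06 (SE 0.631, limma adjusted p = 0.979). Without CON16L its mean was under the filter of 0.5 FPKM, and it was not tested. Atp2a1 was at 0.0828 to 0.236 FPKM in these 5 libraries, Kcnj2 at 0.0215 to 0.120 and Ryr1 at 0.00536 to 0.0180.

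**Figure D5:**
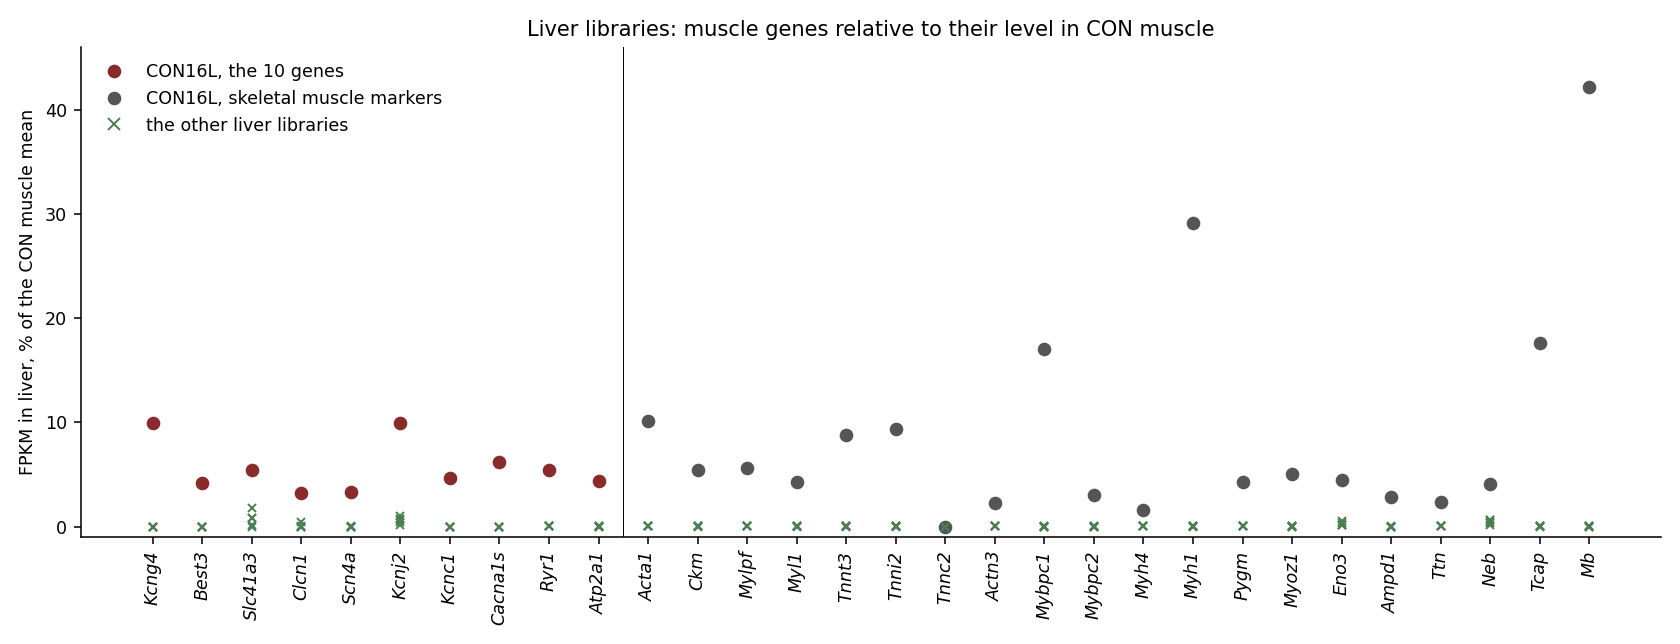
FPKM in the liver libraries as a percentage of the CON muscle mean (vertical axis) for the 10 genes, left of the line, and 20 skeletal muscle markers, right of the line, with CON16L as filled points and the other 5 libraries as crosses. The 10 genes lie between 3.19 and 9.95% in CON16L, and Mb, Myh1, Tcap and Mybpc1 lie highest.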

How the data were processed

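RNA had been depleted of ribosomal RNA, and the libraries were stranded and paired-end. After trimming with cutadapt and alignment by hisat2 against mm10, the authors ran cuffdiff with an Ensembl annotation, and its gene-level FPKM, as deposited, were used here. The submitters' processing notes also list mm9 and HTSeq 0.9.1 without a role. With GENCODE M21 merged exons as length, 18343 of 18822 genes above 0 gave whole fragments (within 0.02) in all 18 libraries, the 10 genes included, and the depth of 7628071 to 16637489 fragments comes from them. Fragments are not independent molecules, so intervals and limits at 0 cover counting error only.

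Each tissue was fitted alone with limma 3.58.1 (R 4.3.3) on log2(FPKM + 0.5). Diet was the sole term, eBayes used a trend, and genes below a mean of 0.5 FPKM were left out. This scale understates changes of low FPKM. The CON libraries of the 3 tissues were fitted in 1 model. P-values are 2-sided and adjusted by Benjamini-Hochberg over all tested genes, and a DEG had an adjusted p under 0.05 and a change of 1 or more on the log2 scale. The authors' DESeq2, which takes counts, was not run, and limma voom on the recovered fragments was an alternative fit. With 3 mice against 3, exact permutation cannot give a p below 0.1. The fit was tested on simulated data.

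The 10 genes and all lists were chosen with earlier results of these data known. Named beside the 10 are called list genes, the most abundant gene and that with the smallest p of each list, subunits in 1 complex with a member, the 3 genes most like Kcng4, Best3 and Slc41a3, and the 2 most abundant markers of a list. Exceptions are stated, and a few genes that this rule names are not reported here. Samples with the same replicate number come from different mice in CON and HSD. In muscle, deviations of same-numbered libraries correlated at 0.383, 0.177 and 0.184, and those of differently numbered libraries at -0.347 to 0.18. The replicate number was a block in an alternative fit only, which found 54 DEGs against 35 without it. The SE and p-values given for muscle are without this block. Figures used Python 3.11.15 and matplotlib 3.10.9. Alternatives were other pseudocounts, filters, scalings and fits, and leaving out each library.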

Additional observations from a re-analysis of the deposited data

Results flagged for a closer look

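Best3 was marked because its diet groups lay apart in opposite directions in 2 tissues. In muscle, every HSD library was below every CON library, whereas in eWAT every HSD library was above every CON library. Of all tested genes, 15.6% were lower in this way in muscle and 16.2% higher in eWAT, where Best3 was under the filter. The muscle values are those that chose Best3. The eWAT values rest on 1, 2 and 4 fragments in HSD, a mean of 0.0664 FPKM, against 0, 1 and 1 in CON, a mean of 0.0155 FPKM. HS2W held 1 fragment, as did CON71W and CON72W, and lay above them only through the scaling by the total of the library. The difference between the tissues was not tested, and nothing is read from it.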

How the results depend on the processing

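In muscle, 35 genes were DEGs, and 3 of them were among the 10 genes. The DEGs were 7 without a filter on low values, 66 by voom on recovered fragments, 54 with the replicate block and 5 with all 18 libraries in 1 fit, where 0 of the 10 genes and 0 of the list genes were called. The last fit estimates 1 variance over 3 tissues, CON16L and HS3W included. With each library left out in turn, the DEGs ran from 10 to 61 (13 without CON16M, 10 without CON72M, 61 without HS2M, 15 without HS3M and 23 without HS5M) and those among the 10 genes from 1 to 2, which describes values that chose 3 of them and supports nothing. The replicate block left Casq2 called and called no other gene of the lists. Under median-ratio scaling, 13 DEGs were higher and 15 lower, against 11 and 24, and Stac3 was at 0.00042 and Jph1 at 0.058. In eWAT, where 0 genes were DEGs, leaving out a library gave 0 to 160 (1 without CON72W, 160 without HS3W), and 1 fit of all libraries gave 161. In liver, with 0 DEGs, the range was 0 to 1, 1 fit of all libraries gave 41, and the libraries in the study's own figures gave 35. Same-numbered libraries did not deviate together in eWAT (-0.197, 0.0608 and 0.414) or liver (-0.473, 0.395 and -0.213), where the block gave 0 DEGs. Uncalled values near 0 turned sign. With a library left out, Slc41a3 in eWAT ran from -0.57 without HS3W to 0.49 without HS5W. Kcnj2 in eWAT was at -0.42 without HS3W, 0.0012 with a pseudocount of 1, 0.036 without CON71W, 0.30 without HS2W and 0.051 without HS5W. Slc41a3 in liver was at -0.044 with a pseudocount of 1, -0.35 without CON14L, -0.30 without CON72L and -0.13 without HS2L, but 0.16 without HS4L. The causes were not tested. Levels under 0.5 FPKM rest on few fragments and limit what can be said of the 10 genes outside muscle.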
